A study of Mus musculus with 16 samples.

Results

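The genes examined here encode the enzymes that write, copy and remove DNA methylation. They are the DNA methyltransferases Dnmt1, Dnmt3a and Dnmt3b, their cofactors Uhrf1 and Dnmt3l, and the dioxygenases Tet1, Tet2 and Tet3. They were taken by name, with earlier results of these data known, and all 8 were found among the 55414 genes of the deposited tables. RNA had been sequenced from whole mouse testes at postnatal day 14 (P14) or 16 (P16). The labels give 3 genotypes, which are Ythdc2 conditional knockout (cKO), control and Cre control, and all had received tamoxifen at 10 mg per ml on days 12 and 13. There were 2 control, 2 Cre control and 3 cKO libraries at P14, and 2, 4 and 3 at P16. The column headers of the deposited values mark the control libraries as WT (wild type) and the Cre control libraries as Ctrl. The labels name neither the driver of the Cre recombinase nor the alleles that the control types carry. They also do not say whether libraries of a group came from separate animals. The p-values below therefore measure the spread between these libraries, which may be technical.

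DNA methylation is the addition of a methyl group to cytosine, mostly where a guanine follows (CpG). DNMT1 restores it on the new strand after replication, guided by UHRF1, which binds DNA that is methylated on one strand. DNMT3A and DNMT3B place new methylation, DNMT3L assists them without catalysing the reaction itself, and the TET enzymes oxidise methylated cytosine on the way to its removal. In the male germ line, new methylation is laid down mainly before birth in prospermatogonia, and the copying pathway serves the dividing spermatogonia and cells entering meiosis. The stages sampled here fall in the period when the first germ cells of the testis pass through meiotic prophase. YTHDC2, the protein removed in the cKO, is an RNA helicase that germ cells need to enter and stay in meiosis.

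The libraries of control and of cKO replicates 1 and 2 were made with one ribosomal RNA depletion kit (the first kit). Those of Cre control and of cKO replicate 3 were made with another (the second kit). No sequencing run held libraries of both kits, so a difference between kits cannot be told apart from one between runs. Gene reads ranged from 22220565 to 27531529 per library with the first kit and from 14494867 to 23200252 with the second. Ythdc2 itself, in the table of control and cKO at P16, stood at 2666 and 2609 in control and at 501.7 and 540.6 in cKO. Each cKO library lay below each control library in all 4 tables. In the table with Cre control at P16 the Ythdc2 values were 1392 to 2633 in Cre control and 226.3 to 445.7 in cKO.

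The region around the start site is shown for the pair of genes that fell together at P16 (Dnmt1 and Uhrf1) and for the gene with the largest rise among the 8 (Tet1). RefSeq start sites on GRCm38.p6 were matched for 8 of the 8 genes, giving 15 windows of 300 bases, each with 250 bases before the start site and 50 after. Dnmt1 has 3 windows, Uhrf1 2 and Tet1 1, and for Dnmt1 and Uhrf1 the one shown is the only one with an E2F match. The Dnmt1 window shown lies at chr9:20952574-20952873 on the minus strand, that of Uhrf1 at chr17:56304063-56304362 on the plus strand, and that of Tet1 at chr10:62887275-62887574 on the minus strand. Capitals mark matches to the E2F motif, which stands before many genes of DNA replication, and all windows are written 5′ to 3′ on the gene's strand.
Dnmt1: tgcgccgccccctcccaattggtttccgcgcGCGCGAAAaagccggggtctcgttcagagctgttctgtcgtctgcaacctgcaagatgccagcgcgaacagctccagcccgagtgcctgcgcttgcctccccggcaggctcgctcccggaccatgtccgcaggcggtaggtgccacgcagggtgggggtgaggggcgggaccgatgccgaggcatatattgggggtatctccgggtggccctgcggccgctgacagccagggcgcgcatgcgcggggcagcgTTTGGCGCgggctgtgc
Uhrf1: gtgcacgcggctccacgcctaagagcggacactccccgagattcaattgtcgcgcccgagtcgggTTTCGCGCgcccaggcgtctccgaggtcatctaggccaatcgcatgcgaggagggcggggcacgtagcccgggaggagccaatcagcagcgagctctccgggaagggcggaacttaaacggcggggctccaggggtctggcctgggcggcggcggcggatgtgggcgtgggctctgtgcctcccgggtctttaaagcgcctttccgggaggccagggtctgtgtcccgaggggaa
Tet1: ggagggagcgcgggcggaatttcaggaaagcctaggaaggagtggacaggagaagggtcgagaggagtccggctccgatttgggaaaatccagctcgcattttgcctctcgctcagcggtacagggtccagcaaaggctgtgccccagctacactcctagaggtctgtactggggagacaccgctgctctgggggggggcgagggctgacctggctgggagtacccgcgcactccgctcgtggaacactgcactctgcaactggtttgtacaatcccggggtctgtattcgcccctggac
The E2F letters searched were TTTCCCGC, TTTCGCGC, TTTGCCGC and TTTGGCGC on both strands. They stood at bases -219 and 34 from the start site of the Dnmt1 window shown and at base -185 from that of the Uhrf1 window shown. The other 2 Dnmt1 windows, the other Uhrf1 window and all windows of the other 6 genes held none. Of 32851 windows of the same length, 2.26% held such a match. The E2F letters themselves contain CpG, and this share was not taken over windows of like CpG content. The motif of the meiotic activators STRA8 and MEIOSIN, searched as CNCCTCAG on both strands, was in 7.94% of all windows. Among the 8 genes it was found at bases -157 and -88 of a Dnmt3l window at chr10:78049592-78049891 on the plus strand. None of these matches overlapped another motif that was searched. The E-box (CACGTG) was found in 7.15% of all windows, the CCAAT box (CCAAT) in 37.4%, the GC box (GGGCGG) in 35.7% and the cAMP response element (TGACGTCA) in 1.79%. The windows shown held 33 CpG for Dnmt1, 33 for Uhrf1 and 17 for Tet1, beside a median of 7 over all windows. The other windows held 2 and 12 CpG for Dnmt1 and 12 for Uhrf1. Windows of the genes not shown ranged from 3 CpG for a Dnmt3l window to 57 for that of Tet2. A match describes letters in the reference and not a bound site.

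Per length, the copying pathway led the 8 genes in every group. In control at P14, in reads scaled to library size and exon length (RPKM), Dnmt1 stood at 32.0 ± 1.23 (SD, n = 2) and Uhrf1 at 25.1 ± 1.11 (SD, n = 2). The enzymes of new methylation followed, with 10.1 ± 0.022 (SD, n = 2) for Dnmt3a and 9.89 ± 0.195 (SD, n = 2) for Dnmt3b. Then came Tet3 at 6.45 RPKM, Tet2 at 1.87, Tet1 at 1.25 and Dnmt3l at 0.194. This order held in control and in cKO libraries 1 and 2 at both stages, with no overlap between neighbours. Dnmt3l was near the limit of detection, with 7 to 25 reads in each library, so its values carry a wide counting error.

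The libraries of the second kit, which were also sequenced in other runs, gave another order. Tet3 stood at 9.44 to 13.2 RPKM in Cre control at P16 and at 5.99 and 6.02 in control at P16. It overlapped with Dnmt3a and with Dnmt3b in Cre control at P16, and Dnmt3a overlapped with both Tet3 and Dnmt3b in Cre control at P14. Uhrf1 was above Dnmt1 in Cre control at P16 (37.7 against 31.4 RPKM) and in cKO library 3 at P16 (30.5 against 26.9 RPKM). In libraries of the first kit, Dnmt1 was above Uhrf1 throughout. At P14 it was above Uhrf1 with the second kit too. There the values were 41.0 against 35.2 RPKM in Cre control and 38.8 against 34.4 RPKM in cKO library 3. The Tet3 share of the summed RPKM of the 3 Tet genes was 63.4% to 70.2% in libraries of the first kit and 80.3% to 83.9% in those of the second. The same shift stood within cKO. There Tet3 was at 6.49 and 7.40 RPKM at P14 and at 6.29 and 6.30 at P16 in libraries of the first kit, and at 13.7 and 12.7 in library 3 of the second kit, beside 9.44 to 13.3 in Cre control.

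**Figure D1:**
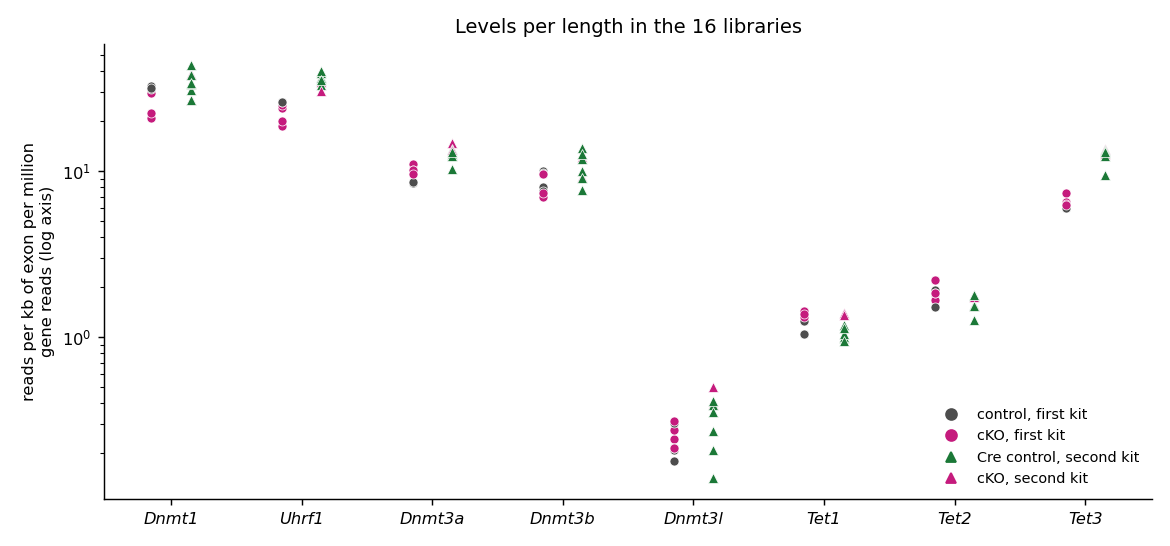
RPKM (log axis) of the 8 genes in the 16 libraries, with circles for the first kit, triangles for the second and colours for genotype. Dnmt1 and Uhrf1 are highest and Dnmt3l lowest in both kits, and the Tet3 points of the second kit lie above all those of the first.

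The comparison of cKO with control at P16 asked how RNA differed between the genotypes 3 days after the last tamoxifen dose, in 2 libraries of each, all of the first kit and of the same sequencing run. Dnmt1 and Uhrf1 fell in cKO, Tet1, Dnmt3a and Tet2 rose, and Dnmt3b, Dnmt3l and Tet3 did not pass the test. The test was limma on the deposited normalized values (log2 of the value plus 1), with Benjamini-Hochberg adjustment over all genes. A gene is termed called where the adjusted p is under 0.05. So 5 of the 8 genes were called, 3 higher and 2 lower. Of all 17986 genes tested, 38.6% were called, 18.6% higher and 19.9% lower. The median log2 change was 0.04 over the 8 genes and 0 over all genes.

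Dnmt1, the copying methyltransferase (ENSMUSG00000004099), stood at 5953 and 6071 in the control libraries and at 4021 and 4303 in the cKO libraries at P16. The control mean was 6012 ± 83.6 (SD, n = 2) and the cKO mean 4162 ± 199 (SD, n = 2), or 69.2% of control. Both cKO libraries were below both controls, by a gap larger than the spread within either group. Dnmt1 changed by -0.53 on the log2 scale (SE 0.046, limma adjusted p 3.31e-06). Its partner Uhrf1, which recruits DNMT1 to newly replicated DNA, held 2895 and 2888 in control and 2067 and 2207 in cKO. The Uhrf1 means were 2891 ± 5.15 (SD, n = 2) and 2137 ± 99.1 (SD, n = 2), or 73.9% of control, and the change on the log2 scale was -0.44 (SE 0.050, limma adjusted p 2.94e-05). The groups did not overlap for either gene. Each was called in 13 of 13 alternative settings, which include leaving out any of the libraries.

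Markers of dividing and spermatogonial cells were lower in the same libraries. Of 20 genes of the mitotic cell cycle 15 were called lower and 4 higher, and their summed level was 2623 to 2655 CPM (reads scaled to library size only) in control and 2102 to 2202 in cKO. Of 17 spermatogonial markers tested 14 were called lower and 2 higher, with summed levels of 1051 to 1052 CPM and 809.5 to 817.1 CPM. Of 24 markers of early meiotic prophase 21 were called lower and 1 higher, with 4100 to 4264 CPM and 3511 to 3853 CPM. Markers of pachytene and later cells went the other way, with 7 of 18 called higher and 2 lower and sums of 2516 to 2561 CPM in control and 2695 to 3011 CPM in cKO. No marker of the first 3 lists was at 0 in any library. Dnmt1 was 8.66% to 8.90% of the mitotic sum in control and 7.35% to 7.53% in cKO, so its level was lower in cKO also relative to that list. Set against the spermatogonial sum, Dnmt1 was 21.8% to 22.2% in control and 18.9% to 20.5% in cKO. The Uhrf1 level was 4.21% to 4.23% of the mitotic sum in control and 3.78% to 3.86% in cKO, and 10.6% of the spermatogonial sum in both control libraries and 9.72% and 10.5% in cKO. Against Cre control at P16, where 9.07% of all genes were called, 4 of 20 mitotic markers were called lower and 1 higher. Of 17 spermatogonial markers 1 was called lower and 0 higher, and of 24 early meiotic markers 5 lower and 1 higher. In cKO library 3 at P16 the mitotic sum was 2468 CPM, beside 2313 to 2623 CPM in Cre control. Its spermatogonial sum was 1104 CPM, beside 1029 to 1207 CPM. In whole testis, fewer cells of a type and less RNA per cell cannot be told apart, and the part of these cells in the changes was not tested.

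Tet1, an oxidase of methylated cytosine (ENSMUSG00000047146), rose. It held 416.7 and 417.8 in control and 577.4 and 550.0 in cKO at P16, means of 417 ± 0.785 (SD, n = 2) and 564 ± 19.4 (SD, n = 2), or 135% of control. The log2 change of Tet1 was 0.43 (SE 0.077, limma adjusted p 7.88e-04), and 13 of 13 alternatives called it. Its groups were well apart. Tet2, a related oxidase that lacks the DNA-binding CXXC domain of Tet1, held 802.2 and 668.3 in control and 965.6 and 802.7 in cKO. The Tet2 groups met almost exactly at their edges, and the log2 change of 0.27 (SE 0.097 and limma adjusted p 0.0462) was called in 7 of 13 alternatives. The Tet2 call was lost without control library 2 (0.13, limma adjusted p 0.377) or cKO library 1 (0.13, limma adjusted p 0.238). Tet3, the most abundant of the 3, held 2592 and 2616 in control and 2739 and 2728 in cKO. Its change of 0.07 on the log2 scale (SE 0.045, limma adjusted p 0.249) did not pass the test although the groups did not overlap. As a share of the summed RPKM of the Tet genes, Tet1 was 11.7% to 12.1% in control and 14.4% in each cKO library.

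Among the enzymes of new methylation, Dnmt3a (ENSMUSG00000020661) held 3673 and 3738 in control and 4392 and 4139 in cKO at P16. The groups were apart, with means of 3706 ± 46.1 (SD, n = 2) and 4265 ± 179 (SD, n = 2), or 115% of control. The log2 change of Dnmt3a was 0.20 (SE 0.046, limma adjusted p 0.00380). That call was lost without control library 1 (a log2 change of 0.19, limma adjusted p 0.0559). Dnmt3b, which with DNMT3A sets new methylation, held 1064 and 1005 in control and 925.8 and 977.7 in cKO, a change of -0.12 on the log2 scale (SE 0.063, adjusted p by limma 0.151). Dnmt3l, the cofactor without catalytic activity, held 16.6 and 23.6 in control and 24.3 and 16.6 in cKO, and these groups overlapped fully. Dnmt3a took a larger share of the summed Dnmt RPKM in cKO, with 17.8% to 17.9% in control and 24.2% to 26.4% in cKO, and Dnmt1 a smaller one, with 65.0% to 65.7% and 54.6% to 56.7%.

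Sertoli, macrophage and Leydig markers were higher in the libraries in which Tet1 and Dnmt3a were higher. Of 20 Sertoli cell markers 14 were called higher and 1 lower, with summed levels of 6268 to 6544 CPM in control and 7429 to 8121 CPM in cKO. Of 9 macrophage markers tested 7 were called higher and 0 lower (128.8 to 133.5 CPM and 181.2 to 185.6 CPM). Of 11 Leydig cell markers tested 5 were called higher and 0 lower (336.9 to 342.4 CPM and 379.0 to 431.1 CPM). Peritubular markers were less clear, with 1 of 6 called higher and 0 lower and overlapping sums (311.5 to 333.6 CPM and 333.1 to 390.9 CPM). The Leydig marker Insl3 was at 0 reads in 10 of the 16 libraries and the macrophage marker Itgam in 1, and no Sertoli marker was at 0 in any. Tet1 was 0.246% to 0.256% of the Sertoli sum in control and 0.273% to 0.285% in cKO, and Dnmt3a 2.17% to 2.29% and 2.08% to 2.15%. Relative to the macrophage sum Tet1 was not higher in cKO, and relative to the Leydig and peritubular sums it was. Against Cre control at P16, 1 of 20 Sertoli, 1 of 9 macrophage, 0 of 11 Leydig and 0 of 6 peritubular markers were called higher, and 0 lower. The Sertoli sum was 9135 CPM in cKO library 3 at P16 and 7538 to 9144 CPM in Cre control. The macrophage sum was 183.9 CPM and 134.7 to 167.3 CPM. The part of these cells in the rise of Tet1 and Dnmt3a was not tested.

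**Figure D2:**
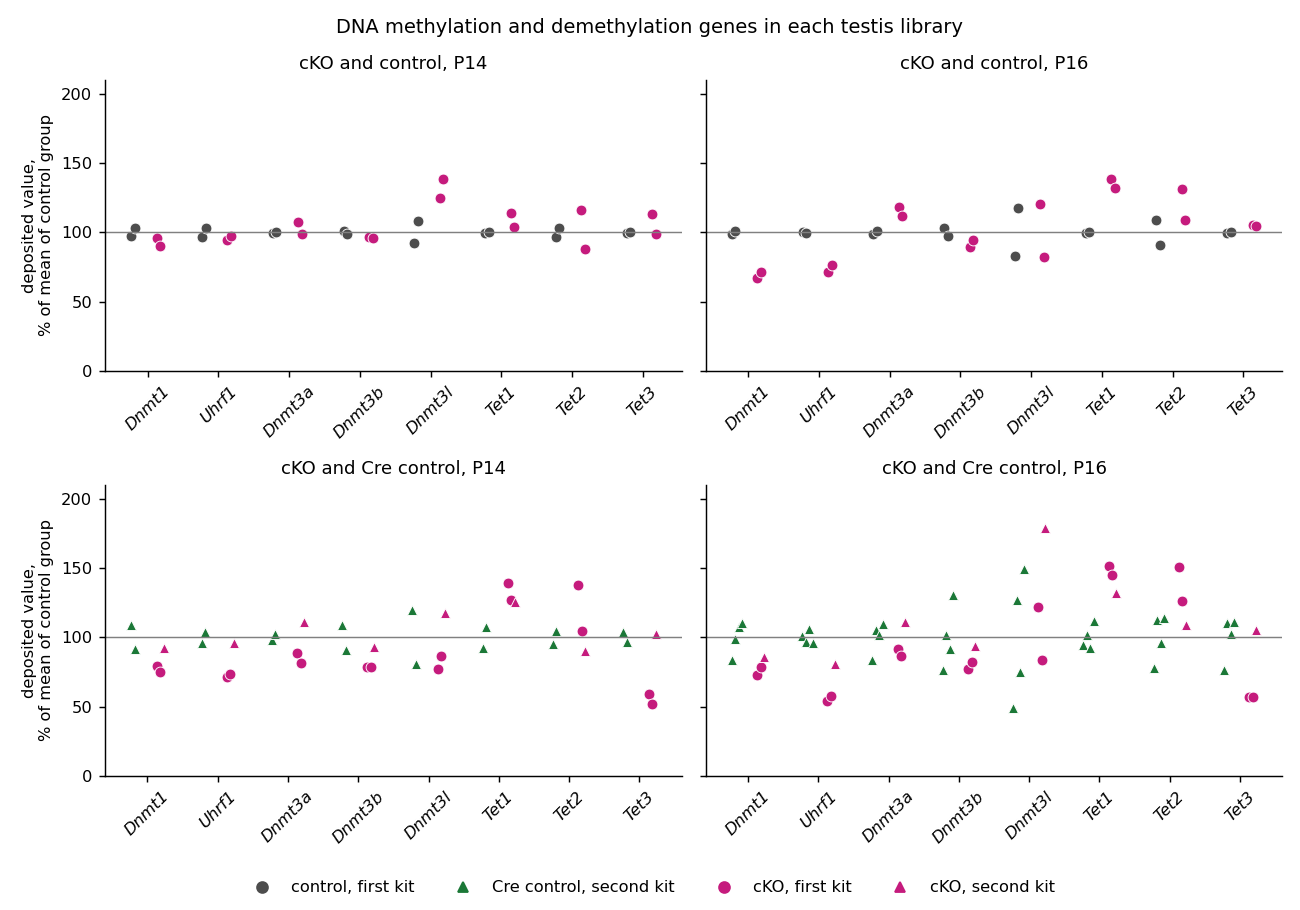
Deposited value of each gene in each library as a percentage of the mean of the control group of its table, for control and Cre control at P14 and P16; circles are the first kit and triangles the second. At P16 against control, Dnmt1 stands at 69.2% and Uhrf1 at 73.9% of control on average and Tet1 at 135%, whereas at P14 none of the 8 genes was called against either control type.

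At P14, which is 1 day after the last tamoxifen dose, the same comparison called 0 of the 8 genes. Of all 17270 genes 0.00579% were called, which is 1 gene, and 410 had an unadjusted p under 0.05. Every one of the 8 genes had a limma adjusted p of 0.999677, none had an unadjusted p under 0.05, and DESeq2 and edgeR also called none of them. Dnmt1 held 5551 and 5878 in control and 5482 and 5165 in cKO, a log2 change of -0.10 (SE 0.056). The Dnmt1 groups lay close together without overlap. Uhrf1 held 2505 and 2675 in control and 2452 and 2522 in cKO, overlapping, with a log2 change of -0.06 (SE 0.057). Tet1 held 468.3 and 471.4 in control and 534.0 and 486.5 in cKO, a log2 change of 0.12 (SE 0.088). Its cKO libraries were both above the controls, by an amount within the spread of the cKO pair. The other 5 genes had log2 changes of 0.02 (Tet2) to 0.37 (Dnmt3l, SE 0.31) in the upward direction and -0.05 (Dnmt3b) in the downward one. Ythdc2 was already at 658.3 and 753.2 in cKO against 2027 and 2262 in control at this stage.

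An interaction term on log2 CPM, over the 8 libraries of the first kit, asked whether cKO acted differently at the 2 stages. Dnmt1 and Uhrf1 passed this test and the other 6 genes did not. Among all 17641 genes, 8.45% passed, 2.99% with a more positive and 5.46% with a more negative effect at P16. The cKO effect on Dnmt1 was lower at P16 by -0.43 (SE 0.076, limma adjusted p 0.0135) and that on Uhrf1 by -0.38 (SE 0.077, limma adjusted p 0.0215). The difference for Tet1 was 0.32 (SE 0.11, limma adjusted p 0.0966) and that for Dnmt3a 0.16 (SE 0.071, limma adjusted p 0.190). The call for Dnmt1 was lost without control P16 library 1 or 2 or cKO P16 library 1, with limma adjusted p of 0.0573 to 0.0731. The call for Uhrf1 was lost without any of these 3 or control P14 library 1, with limma adjusted p of 0.0629 to 0.0936. Over these fits without a library, the share of all genes called ranged from 1.64% to 18.0%. Dnmt1 changed from P14 to P16 by -0.03 in control and -0.45 in cKO, but by -0.43 in Cre control, which the interaction leaves out. Within the second kit, cKO library 3 differed from the Cre control mean by -0.11 at P14 and -0.21 at P16 for Dnmt1. For Uhrf1 these log2 differences were -0.06 and -0.30.

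**Figure D3:**
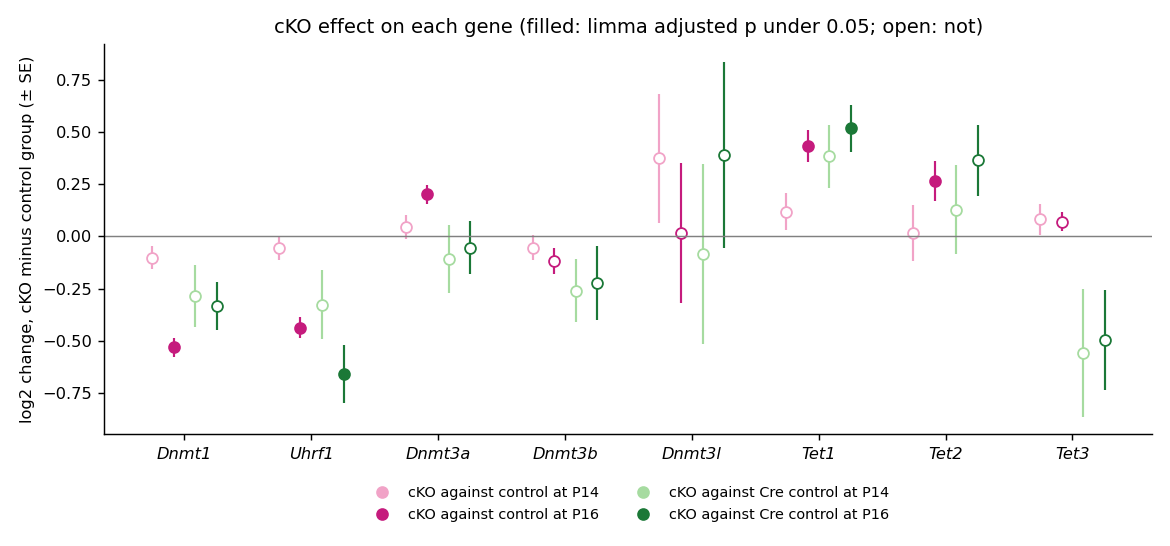
log2 change of each gene in cKO against each control type at each stage, with standard errors; filled points are called and open points are not. At P14 no point is filled, and at P16 the Uhrf1 and Tet1 points are filled against both control types, with Uhrf1 below 0 and Tet1 above.

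The comparison with Cre control asked the same against the other control type. In these tables cKO libraries 1 and 2 differ from every Cre control in kit, and cKO library 3 shares it. The cKO libraries 1 and 2 are also those of the comparison with control, so the 2 comparisons are not independent. At P16, 2 of the 8 genes were called, Uhrf1 lower and Tet1 higher, among 9.07% of all 19200 genes, 4.30% higher and 4.77% lower. Uhrf1 was 3177, 3026, 3329 and 3018 in the Cre controls and 1693, 1820 and 2538 in cKO libraries 1, 2 and 3. All 3 cKO libraries were below all 4 Cre controls, and the change on the log2 scale was -0.66 (SE 0.14, limma adjusted p 0.0408). Tet1 was 295.4, 318.1, 287.4 and 348.2 in the Cre controls and 472.9, 453.4 and 412.9 in cKO, a change of 0.52 on the log2 scale (SE 0.11, adjusted p by limma 0.0408). Here all 3 cKO libraries were above all Cre controls.

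Within the second kit alone, Uhrf1 in cKO library 3 was at 80.9% of its mean in Cre control at P16, and Tet1 at 132%. These differences, -0.30 and 0.41 on the log2 scale, lay outside the -0.07 to 0.12 for Uhrf1 and the -0.15 to 0.21 for Tet1 by which single Cre controls differed from the others. With the kit as a covariate neither was called, with limma adjusted p of 0.164 for Uhrf1 and 0.201 for Tet1, and leaving out any of the Cre controls, or cKO library 1 or 2, also ended both calls. The fit with the kit called 0.00521% of all genes, and none of those fits without a library called any gene (0%), so the loss was not of these 2 genes alone. The fit over both control types at P16 with the kit as a covariate called Dnmt1, Uhrf1 and Tet1. Its log2 changes were -0.38 (SE 0.10, limma adjusted p 0.0303) for Dnmt1, -0.37 (SE 0.060, limma adjusted p 0.00517) for Uhrf1 and 0.43 (SE 0.092, limma adjusted p 0.0141) for Tet1. In that fit Dnmt3a changed by 0.19 (limma adjusted p 0.150) and Tet2 by 0.22 (limma adjusted p 0.296).

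Dnmt1 against Cre control at P16 was 3786, 4469, 4852 and 4987 in the Cre controls and 3294, 3548 and 3890 in cKO. The groups overlapped through Cre control library 1 and cKO library 3, and the log2 change of -0.33 (SE 0.11) did not pass the test (limma adjusted p 0.0771). Both of those libraries were sequenced in another run than Cre controls 2 to 4. In the same libraries of that run, Uhrf1 was 3177 in Cre control 1 and 2538 in cKO 3, and Tet1 295.4 and 412.9. Cre control library 1 also had the highest summed level of markers of pachytene and later cells, 3683 CPM beside 1900 to 2996 CPM in the other 3, and whether that bears on its Dnmt1 level was not tested.

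Tet3 was 3011, 4323, 4011 and 4363 in the Cre controls at P16 and 2243, 2249 and 4136 in cKO. The pair of cKO libraries of the first kit stood below all Cre controls and cKO library 3 stood among them. The change of -0.50 on the log2 scale (SE 0.24, limma adjusted p 0.168) was not called, and within the second kit it was 0.09. Tet2 had a change of 0.36 on the log2 scale (SE 0.17, limma adjusted p 0.156), Dnmt3b of -0.22 (SE 0.18), Dnmt3a of -0.05 (SE 0.13) and Dnmt3l of 0.39 (SE 0.45). Dnmt3a in cKO library 3 was above all Cre controls, at 111% of their mean. That library also had the largest share of Dnmt3a in the summed Dnmt RPKM of the second kit at P16, 26.8% beside 21.7% to 23.6% in Cre control.

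At P14 none of the 8 genes was called against Cre control, nor were any of the 18196 genes tested (0%), although 705 had an unadjusted p under 0.05 and DESeq2 called 5. Ythdc2 itself, at 34.9% of the Cre control mean in cKO, was not called there (log2 change -1.57, SE 0.29, limma adjusted p 0.479). The lack of calls therefore does not show a lack of change. Uhrf1 was 2664 and 2891 in Cre control and 1985, 2052 and 2661 in cKO, a change of -0.33 on the log2 scale (SE 0.17, adjusted p by limma 0.479). cKO library 3 was level with the lower Cre control. Tet1 was 288.1 and 334.9 in Cre control and 432.4, 395.9 and 389.7 in cKO, a change of 0.38 on the log2 scale (SE 0.15, adjusted p by limma 0.479). Here every cKO library, that of the second kit included, was above both Cre controls. Tet3 changed by -0.56 (SE 0.31) and Dnmt1 by -0.28 (SE 0.15), with overlapping groups.

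From P14 to P16, 3 of the 8 genes fell in control, namely Dnmt3b, Dnmt3a and Tet1. Of all 17641 genes 20.9% were called between the stages in control, 14.2% higher and 6.71% lower at P16. Dnmt3b went from 50.5 ± 0.994 CPM (SD, n = 2) to 39.8 ± 1.73 CPM (SD, n = 2), a change of -0.34 on the log2 scale (SE 0.060, adjusted p by limma 0.00339). Dnmt3a went from 168 ± 0.373 CPM (SD, n = 2) to 143 ± 1.36 CPM (SD, n = 2), a change of -0.24 on the log2 scale (SE 0.050, adjusted p by limma 0.00889). Tet1 went from 19.4 ± 0.054 CPM (SD, n = 2) to 16.1 ± 0.016 CPM (SD, n = 2), a change of -0.27 on the log2 scale (SE 0.076, adjusted p by limma 0.0312). The fall of Dnmt3b was called in 10 of 10 alternatives and that of Tet1 in 4 of 10, and leaving out any 1 library ended the latter. That of Dnmt3a was called in 6 of 10 and in 1 of the 4 fits without a library. Those fits called 9.53% to 14.8% of all genes. Dnmt1 (-0.03), Uhrf1 (0.06), Tet2 (-0.16, SE 0.14), Tet3 (-0.10, SE 0.062) and Dnmt3l (0.38, SE 0.32) did not pass the test in control. Sertoli, macrophage and peritubular markers were lower at P16 in the same contrast. Of these, 9 of 20 Sertoli, 6 of 9 macrophage and 5 of 6 peritubular markers were called lower and 0 higher. Of 11 Leydig cell markers tested 2 were called lower and 1 higher. Of 18 markers of pachytene and later cells 16 were called higher and 0 lower. Of 20 mitotic markers 4 were called lower and 1 higher, and of 17 spermatogonial markers 4 lower and 2 higher. Of 24 early meiotic markers 5 were called higher and 0 lower. The part of these cells in the falls was not tested.

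In cKO another set of 3 genes was lower at P16, namely Dnmt1, Dnmt3b and Uhrf1. Of all 17641 genes 31.5% were called in this contrast, 16.3% higher and 15.2% lower. Dnmt1 went from 223 ± 7.86 CPM (SD, n = 2) to 160 ± 7.97 CPM (SD, n = 2) with the first kit, a change of -0.45 on the log2 scale (SE 0.054, adjusted p by limma 3.23e-04). Uhrf1 went from 104 ± 2.80 CPM (SD, n = 2) to 82.2 ± 3.97 CPM (SD, n = 2), a change of -0.32 on the log2 scale (SE 0.055, adjusted p by limma 0.00216). Dnmt3b went from 49.4 ± 0.068 CPM (SD, n = 2) to 36.6 ± 1.48 CPM (SD, n = 2), a change of -0.41 on the log2 scale (SE 0.060, adjusted p by limma 9.25e-04). All 3 falls were called in 11 of 11 alternatives, among them a fit with cKO library 3 of each stage and the kit as a covariate. In cKO library 3, Dnmt1 stood at 286 CPM at P14 and 199 CPM at P16, and Uhrf1 at 146 and 130 CPM. Tet1 in cKO did not change between the stages beyond the spread, with 21.4 ± 1.26 CPM (SD, n = 2) and 21.7 ± 0.706 CPM (SD, n = 2), a log2 change of 0.05 (SE 0.076). In this contrast 11 of 20 mitotic markers were called lower and 3 higher, and 11 of 17 spermatogonial markers lower and 2 higher. Of 24 early meiotic markers 11 were called lower and 1 higher, and of 18 markers of pachytene and later cells 16 higher and 0 lower. Of 20 Sertoli markers 5 were called lower and 3 higher, and of 11 Leydig markers 1 lower and 2 higher. Of 6 peritubular markers 2 were called lower and 0 higher, and of 9 macrophage markers 0 either way. The part of these cells in the falls was not tested. The interaction given above is the test of these differences between cKO and control, and it does not hold Cre control.

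Cre control libraries gave 1 call among the 8 genes, a lower level of Dnmt1 at P16. Of all 18857 genes 11.8% were called, 9.08% higher and 2.72% lower. Dnmt1 went from 302 ± 30.1 CPM (SD, n = 2) to 231 ± 24.4 CPM (SD, n = 4), a change of -0.43 on the log2 scale (SE 0.12, adjusted p by limma 0.0427). Of the 4 libraries at P16, 3 came from another sequencing run than the P14 libraries. In the run that holds both stages the log2 change was -0.62 (limma adjusted p 0.0496), with a single library at P16 that is assumed to vary like the P14 pair. The call was lost without Cre control P14 library 1 (-0.32, limma adjusted p 0.270), P16 library 2 (-0.43, limma adjusted p 0.0877) or P16 library 3 (-0.46, limma adjusted p 0.0664). Fits without a library called 3.11% to 14.8% of all genes here. Dnmt3b changed by -0.44 (SE 0.18, limma adjusted p 0.150) and Uhrf1 by 0.06 (SE 0.087). Of 20 mitotic markers 9 were called lower and 1 higher in Cre control, and of 18 markers of pachytene and later cells 14 higher. Of 17 spermatogonial markers 5 were called lower and 2 higher, and of 24 early meiotic markers 3 lower and 4 higher. Of 6 peritubular markers 3 were called lower, of 20 Sertoli markers 2 and of 9 macrophage markers 1, with 0 higher. Of 11 Leydig markers 0 were called either way.

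**Figure D4:**
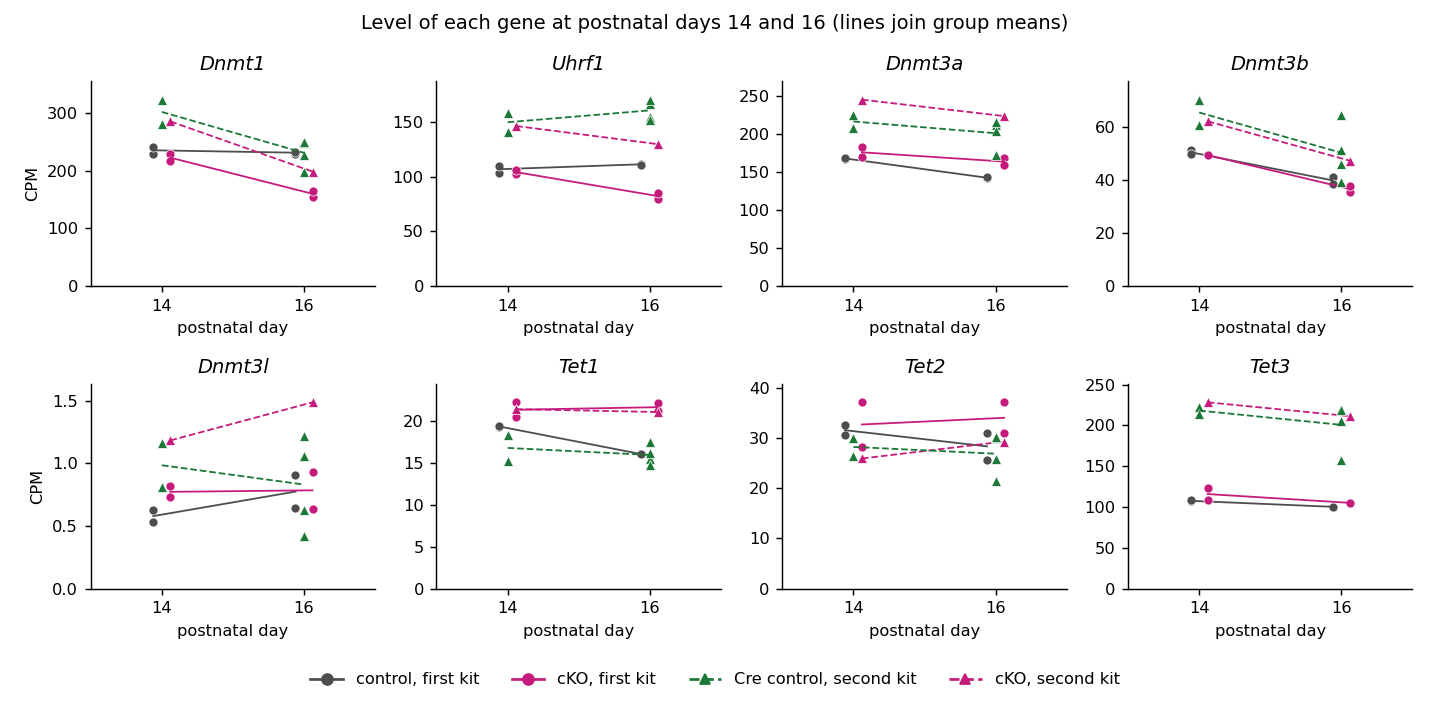
Level of each gene in CPM at postnatal days 14 and 16, one point per library and lines between group means, with circles and solid lines for the first kit and triangles and dashed lines for the second. Dnmt1 and Uhrf1 part between control and cKO at P16 with the first kit, Dnmt3b is lower at P16 in every group mean, and Tet3 is about level within each kit.

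A list of 54 other genes of the DNA methylation machinery (readers, remodellers, repair and methyl donor enzymes, germline factors) moved in both directions at P16 against control. Of the 54, 9 were called higher, 18 lower and 27 not, with a median log2 change of 0, beside 18.6% higher and 19.9% lower among all genes. The largest fall was that of Ctcfl, which encodes the testis paralog of the insulator protein CTCF. It held 389.7 and 447.1 in control and 78.6 and 115 in cKO, a log2 change of -2.12 (SE 0.16). Hells, a chromatin remodeller needed for normal DNA methylation, held 7120 and 7171 in control and 3580 and 3784 in cKO (-0.96, SE 0.044). Its groups were far apart, and like Ctcfl it was called in 13 of 13 alternatives.

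The next falls were in a group of genes that direct new methylation to transposons in male germ cells. Spocd1 changed by -0.90 (SE 0.18), Piwil4, a PIWI protein also known as MIWI2, by -0.81 (SE 0.18) and Tex15 by -0.73 (SE 0.042). Cdca7l, a relative of the HELLS partner CDCA7, changed by -0.49 (SE 0.066). None of these 4 was called in the fit over both control types with the kit as a covariate. Against Cre control at P16, Tex15 moved the other way, with 3116 to 3990 in Cre control, 6398 and 6465 in cKO libraries 1 and 2 and 4964 in cKO library 3 (0.77, limma adjusted p 0.0367). The cKO library of the second kit lay above all Cre controls for Tex15. It lay among them for Spocd1 (100% of their mean), Piwil4 (93.6%) and Cdca7l (99.7%). Ctcfl against Cre control was 174.1 to 202.0 in Cre control and 64.4, 94.8 and 139 in cKO, below in every library (-0.95, limma adjusted p 0.0518). Hells was not separated there (-0.08, limma adjusted p 0.633), with cKO library 3 at 83.4% of the Cre control mean and below all of them.

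Among called genes, the largest rises on the list were smaller than the falls. They were in Cxxc5, a CXXC zinc finger protein that binds unmethylated CpG (0.30), Mbd5 (0.28), the methyl-CpG reader Mbd2 (0.27), the reader Zbtb38 (0.26), the mitochondrial isocitrate dehydrogenase Idh2 (0.26) and the folate enzyme Mthfd1 (0.25). Of these, Mbd5 (0.54, limma adjusted p 0.0367) and Zbtb38 (0.80, limma adjusted p 0.0367) were also called higher against Cre control at P16, where cKO library 3 was above all Cre controls for both. In the fit over both control types with the kit as a covariate, Mbd5, Mbd2 and Zbtb38 were called and Cxxc5, Idh2 and Mthfd1 were not. In cKO library 3 at P16, Idh2 was at 93.8%, Cxxc5 at 104% and Mthfd1 at 117% of the Cre control mean. Dnmt3c, a rodent copy of Dnmt3b that methylates young transposons in male germ cells, held 55.1 and 58.6 in control and 54.3 and 59.0 in cKO at P16. The Dnmt3c groups overlapped, with a change of -0.00 on the log2 scale (SE 0.20, limma adjusted p 0.989). Reads that fit both Dnmt3c and Dnmt3b may have been lost in the counting.

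The counts in the other comparisons are given beside the share of all genes called. At P14 none of the 54 was called against control and none of the 53 tested against Cre control. Against Cre control at P16, 7 were called higher and 4 lower of 53, beside 9.07% of all genes. In the interaction with stage, 1 was called higher and 7 lower of 54, beside 8.45%. Between P14 and P16, 3 were called higher and 4 lower of 54 in control, beside 20.9%, and 5 and 13 of 54 in cKO, beside 31.5%. In Cre control 3 were called higher and 6 lower of 53, beside 11.8%. All genes, too, had smaller shares of calls in these comparisons than in that with control at P16.

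**Figure D5:**
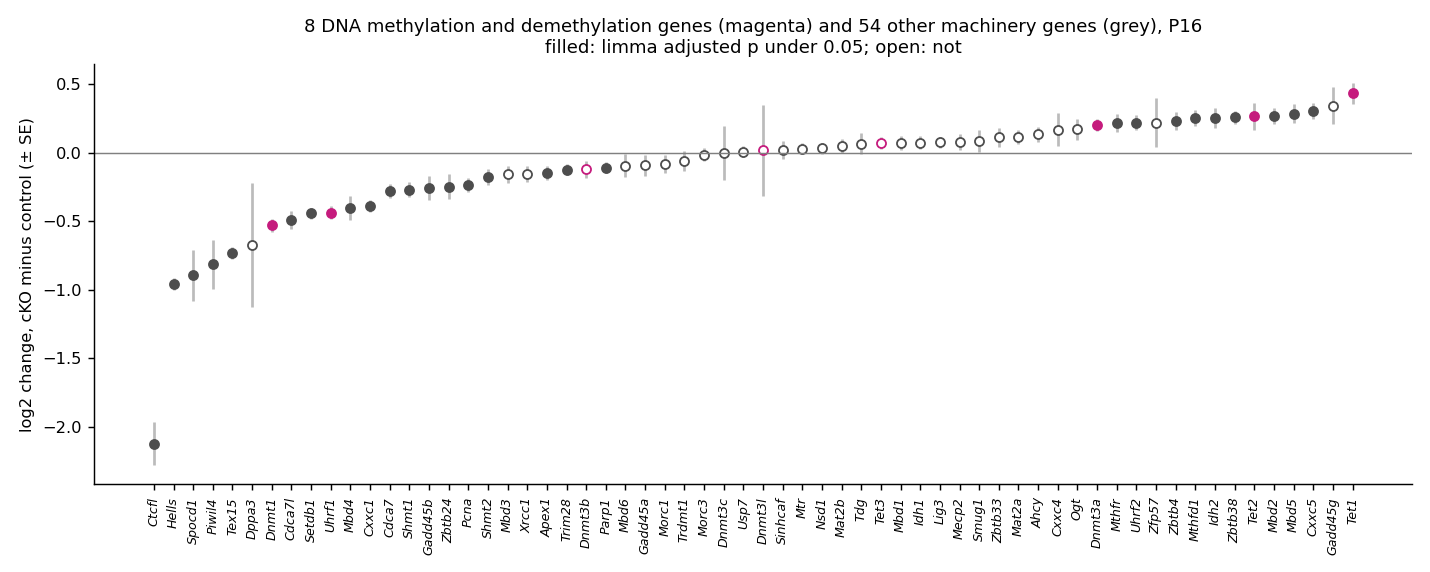
log2 change with standard error in cKO against control at P16 for the 8 genes (magenta) and the 54 other machinery genes (grey), ordered by size; filled points are called. Dnmt1 at -0.53 and Uhrf1 at -0.44 stand among the falls and Tet1 at 0.43 has the highest value of all genes shown, while Ctcfl at -2.12 and Hells at -0.96 have the lowest.

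The 7 genes with a mean of at least 5 CPM were compared with 12208 genes over the 16 libraries, after centring log2 CPM within each kit. The libraries share kits, stages and genotypes, so the correlations are a description. The genes most like Dnmt1 were Kif5a (Pearson r 0.97) and Plcb3 (0.97), and those most like Uhrf1 were Fanci (0.95) and Myl6b (0.95). For Tet1 they were Xxylt1 (0.96) and Il6st (0.95), for Tet2 Dusp3 (0.84) and Snx33 (0.82), and for Tet3 Rab35 (0.92) and Oxct1 (0.92). For Dnmt3a they were Cemip2 (0.93) and Ganab (0.93), and for Dnmt3b Sertad4 (0.96) and Card10 (0.95). Among the 7 themselves, the highest value was that of Dnmt3a with Tet3 (0.86) and the lowest that of Uhrf1 with Tet1 (-0.67). Dnmt1 with Uhrf1 gave 0.54, below Dnmt1 with Dnmt3b (0.80).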

How the data were processed

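RNA-seq of mouse testis gave 16 libraries, made with a directional NEBNext kit per the labels' protocols. The authors deposited 4 tables of normalized counts, one for each stage and control type. The deposited values are a signal that the authors made from gene counts by scaling each library with a size factor within its table, per the file names and the values themselves. The submitters' processing notes name Trim Galore, STAR, HTSeq, DESeq2 and the build GRCm39 (mm39), with no versions, and the strand setting of the counting is not given in the sources used here. In all 20 columns 100% of the values came out as whole reads (tolerance 0.01 reads) once divided by what 1 read is worth, so reads could be recovered. The cKO libraries 1 and 2 of a stage have the same recovered reads in both its tables. The 4 summary rows of the counter were left out of library sizes and tests.

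Gene names and exon lengths came from GENCODE M21 (IDs without version), which named 52081 of the 55414 IDs. Exons of Dnmt3a, Dnmt3l and Tet2 overlap other genes on the other strand over 0.255% to 2.24% of their length. The main test was limma 3.58.1 (R 4.3.3, eBayes with trend) within a table, on log2(deposited value + 1) for genes that reached 10 in 2 or more libraries. Fold changes on this scale understate changes of low genes. Stage contrasts and the interaction used limma on the recovered reads as log2 CPM (TMM scaling, prior count 1), for genes that reached 0.5 CPM in 2 or more libraries. P-values were adjusted by Benjamini-Hochberg over all genes, and a gene is called at an adjusted p under 0.05. On the recovered reads, edgeR 4.0.16 called 6983 genes and DESeq2 1.42.0 called 4641 at P16 against control. The tests were tested on simulated data.

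The 8 genes and the lists were chosen with earlier results of these data known. Named are the 8 genes, Ythdc2, Dnmt3c, among machinery genes called at P16 against control the 6 that rose most and the 6 that fell most, and the 2 genes most correlated with each of the 7 members that reached a mean of 5 CPM (all but Dnmt3l). Promoter windows are RefSeq's, from GRCm38.p6, and the motifs were also chosen with results known.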

Additional observations from a re-analysis of the deposited data

Results flagged for a closer look

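The cKO effect on 2 of the 8 genes differed between P16 and P14 in the interaction test on the first kit (limma, Benjamini-Hochberg over all genes). For Dnmt1 the effect was lower at P16 by -0.43 on the log2 scale (limma adjusted p 0.0135), with cKO below control in each library at both stages. In Cre control, which that test leaves out, Dnmt1 also fell from P14 to P16, by -0.43 (SE 0.12). For Uhrf1 the difference was -0.38 (limma adjusted p 0.0215), with overlapping libraries at P14 and separate ones at P16. Of the 8 sets of 4 Cre control values at P16, one for each gene, none held a library that stood apart from the others beyond the limit of Dixon's test.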

How the results depend on the processing

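At P16 against control, where 5 of the 8 genes were called, eBayes without trend called 3 and the fit over both control types with the kit as a covariate called 3. The share of all genes called went from 38.6% to 10.0% and 14.2% in these fits. Leaving out a library gave 4 to 5. Against Cre control at P16, where 2 were called, no filter on low values gave 1, eBayes without trend 0, the kit as a covariate 0, and DESeq2 and the fit over both control types 3 each. Of all genes these fits called 2.71%, 0.167%, 0.00521%, 21.8% and 14.2%, beside 9.07%. Leaving out a library gave 0 to 5 there, the 5 without cKO library 3, which leaves kit and genotype confounded and calls 49.5% of all genes, while the other 6 such fits call 0%. Against Cre control at P14, where 0 were called, leaving out a library gave 0 to 3, the 3 again without cKO library 3 (34.9% of all genes). For the difference between stages, where 2 were called, eBayes without trend gave 0 (1.04% of all genes, beside 8.45%) and leaving out a library 0 to 4. Between the stages in control (3 called), leaving out a library gave 1 to 2, and in cKO (3 called) 3 to 4. In Cre control (1 called), no filter gave 0, eBayes without trend 0, and leaving out a library 0 to 2. At P14 against control every alternative called 0 of the 8 genes. Where these counts moved, the cause was not tested beyond what the setting itself removes.

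Replicate numbers were not shown to pair the libraries. Same-numbered libraries had deviations correlated by 0.080 at P16 against control and by 0.304, -0.070 and 0.225 against Cre control at P16, where 2 of the 3 cKO libraries resembled their own number most. With the replicate number as a block, the count went from 2 to 0 against Cre control at P16 (0% of all genes) and from 0 to 3 against Cre control at P14 (38.3% of all genes). At P14 that block gives cKO library 3, whose number no Cre control shares, a term of its own, so the contrast rests on libraries of different kits. In the other 6 comparisons the block changed no count of the 8 genes.

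Of 848 single values of the 8 genes under alternatives, none changed sign while called, 52 fell below the threshold and 15 passed it. The single sequencing run in Cre control was added after the data were seen. The 27 machinery genes called at P16 against control became 7 under eBayes without trend and 8 in the fit over both control types, as all genes called went from 6939 to 1806 and 2738. The 11 against Cre control became 5 with no filter, 18 with DESeq2, and 0 with eBayes without trend, the block or the kit as a covariate. With 2 libraries in 3 of the 6 groups, the precision is set by their number, and Dnmt3l is limited by its few reads.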
